A study of Sesbania grandiflora with 21 samples.

Results

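In leaves of Sesbania grandiflora, 71 of 97500 assembled genes were higher than in the ck leaves under each of the single labels DS-L and Y-L. In the mean log2 level of the combined label DS+Y-L they were below ck or less than 0.3 above it. These 71 members were chosen from the measured levels. For every gene, counts were divided by the library's total and scaled to CPM, and d was the mean log2(CPM + 1) of a group minus that of ck. A member had a group mean of at least 5 CPM in DS-L or Y-L, d of at least 0.7 in both DS-L and Y-L, and d under 0.3 in DS+Y-L. All 71 genes that met these conditions were kept, since a limit of 150 was not reached, and all 71 passed the low-count filter of the test described further on.

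The series, whose title names combined drought and salt stress, holds 21 leaf RNA libraries that their titles place in 7 groups of 3, although the design text counts 4 such groups. The combined labels DS+Y-S and DS+Y-L stand beside the single labels DS-S, Y-S, DS-L and Y-L, and beside ck. What ck, DS, Y, L and S stand for is not spelled out, and no dose, duration, plant age or genotype is labelled, so groups go by these letters. Replicates are not said to be separate plants, so a p-value here measures only how far these libraries spread, which may be technical variation. Total counts ran from 16431940 to 20138058 per library. DS+Y-S replicate 1 had counts on 36755 genes against 47279 to 61454 in the other 20 libraries, was not used to choose members, and is given apart below.

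Drought and salinity both make water harder for a plant to take up, and salinity adds sodium and chloride ions that are toxic inside the cell. In leaves of many plants, both stresses raise the hormone abscisic acid, close stomata and induce genes for protective proteins, compatible solutes and enzymes that remove reactive oxygen, through regulators of which some are shared and some are specific to 1 stress. Responses to a combined stress are therefore often read against each single stress, gene by gene. Gene identifiers here come from a transcript assembly and carry no gene names, so no member can be given a function, and neither known stress genes nor markers of leaf cell types could be looked up among them. Each identifier may share reads with a close copy or an allelic variant assembled as another gene. A leaf library pools many cell types, so fewer cells of a type and less RNA per cell cannot be told apart.

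Loss of the raised level in the combined group was the less common outcome among genes raised in both single groups. Of the 16579 genes with at least 5 CPM in DS-L or Y-L, 1876 had d of at least 0.7 in DS-L, 2343 in Y-L and 831 in both. In DS+Y-L, 691 of these 831 still had d of at least 0.7, 69 lay between 0.3 and 0.7, and 71 (8.54%) lay under 0.3 and are the members. Of all genes tested, 10% had d of at least 0.7 in DS+Y-L and 77% lay under 0.3. The d of DS-L, Y-L and DS+Y-L subtract the same ck mean, so a low ck mean raises all of them. These counts use the values of the rule and are a description only. The members nearest to the limits had a smaller d of 0.701, a DS+Y-L d of 0.295 and a mean of 5.23 CPM. The nearest genes on the other side had 0.697, 0.313 and 4.87 CPM.

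The median d of the members was 0.99 in DS-L, 1.06 in Y-L and -0.17 in DS+Y-L, values fixed in their direction by the choice of members. The smaller of a member's d in DS-L and Y-L had a median of 0.878 and a highest value of 2.12, and it was at least 1 in 20 members. The larger d was that of DS-L in 39 members and that of Y-L in 32. In DS+Y-L, 24 members had d from 0 to under 0.3 and 47 had d below 0, of which 17 were at -0.7 or lower. Over all genes tested, 43.9% had d above 0 in DS+Y-L. The side of ck on which a member lay depended on the measure. The edgeR fit with TMM put 36 members below ck and 35 above, with a median of -0.03 and a range from -2.92 to 1.08. That fit differs from d in its scaling and in how it averages the libraries of a group. Which of these moved the members was not tested. Their levels spanned a wide range. In ck, 3 members averaged under 1 CPM, 23 from 1 to under 10, 38 from 10 to under 100, and 7 at least 100. Per length, the members' median in the authors' FPKM was 16.5 in ck (lowest 0.24, highest 11345), 37.9 in DS-L, 35.05 in Y-L and 14.2 in DS+Y-L.

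The 3 DS+Y-L libraries did not carry this pattern alike. The median over members of log2(CPM + 1) minus the member's ck mean was -0.65 in DS+Y-L replicate 1, -0.95 in replicate 2 and 0.74 in replicate 3. It was 0.23, 0.04 and -0.36 in the ck libraries, 1.19, 0.80 and 1.30 in DS-L, and 1.12, 1.49 and 0.75 in Y-L. Replicates 1 and 2 of DS+Y-L thus lay below every ck library, and replicate 3 lay just under the lowest of the 6 single-label libraries of suffix L. Over the 41105 genes tested, the same median stayed between -0.22 and 0.11 in all 21 libraries.

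**Figure D1:**
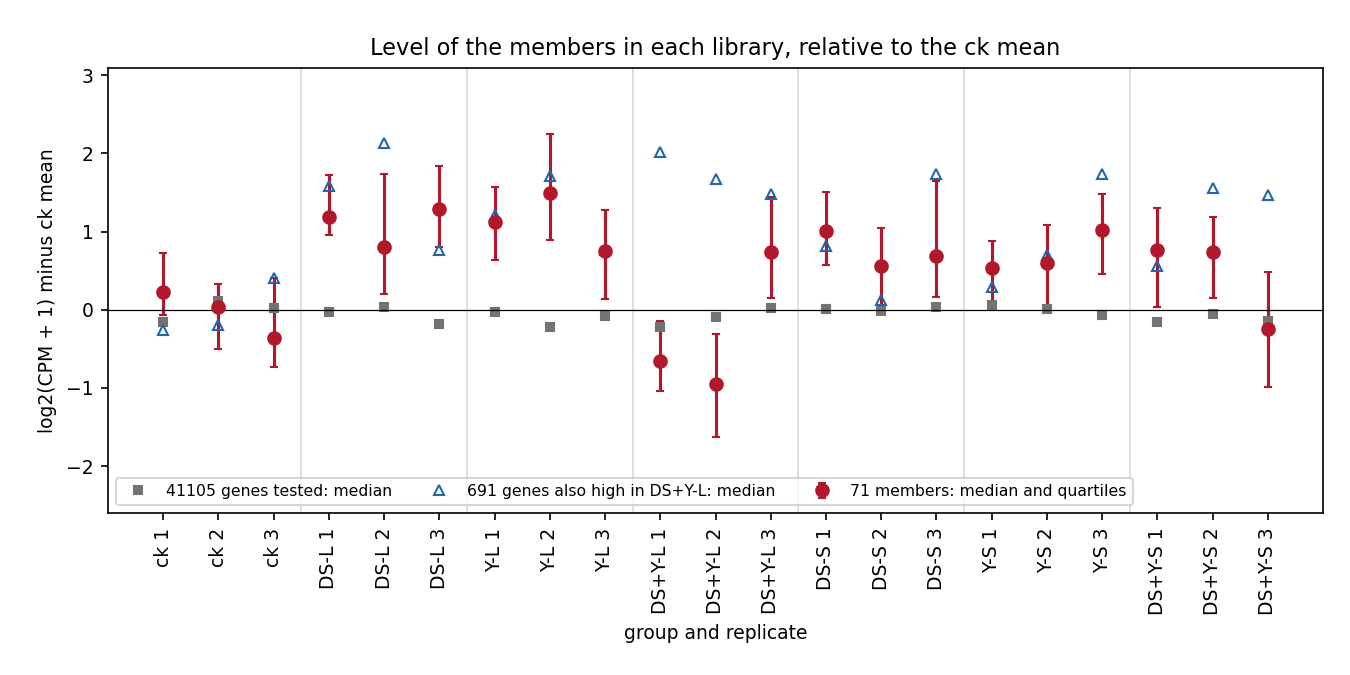
Level of the 71 members in each of 21 libraries, as log2(CPM + 1) minus the ck mean of each gene (points, median; bars, quartiles), beside the medians of the 41105 genes tested (squares) and of the 691 genes also high in DS+Y-L (triangles). DS+Y-L replicates 1 and 2 sit at -0.65 and -0.95 for the members, while replicate 3 sits at 0.74, near the single-label libraries. DS+Y-S replicate 1 is shown but was left out of the fit.

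Counted by member, 1 of 71 was at least 0.7 above its ck mean in DS+Y-L replicate 1, 0 in replicate 2 and 37 in replicate 3, against 13%, 14.8% and 8.85% of all genes tested. Replicate 3 was the highest of the 3 libraries in 62 members, against 47.9% of genes tested. In 36 members replicate 3 was at least 0.7 above ck while both other libraries were under 0.3, and in 16 members all 3 libraries were under 0.3. Replicate 1 was below all 6 single-label L libraries in 58 members, replicate 2 in 59 and replicate 3 in 16, against 21.9%, 19.1% and 6.87% of genes tested. Replicates 1 and 2 were together below all 6 in 51 members, and all 3 replicates were in 10, the latter against 1.56% of genes tested. Shares over all genes were not computed for the counts of 36, 16 and 51. All these libraries chose the members, so the counts only describe which libraries made the mean low. In 36 of the 71 members the low DS+Y-L mean thus rested on replicates 1 and 2, with replicate 3 at least 0.7 above ck. Without DS+Y-L replicate 3, 135 genes met the rule, among them 69 of the 71.

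**Figure D2:**
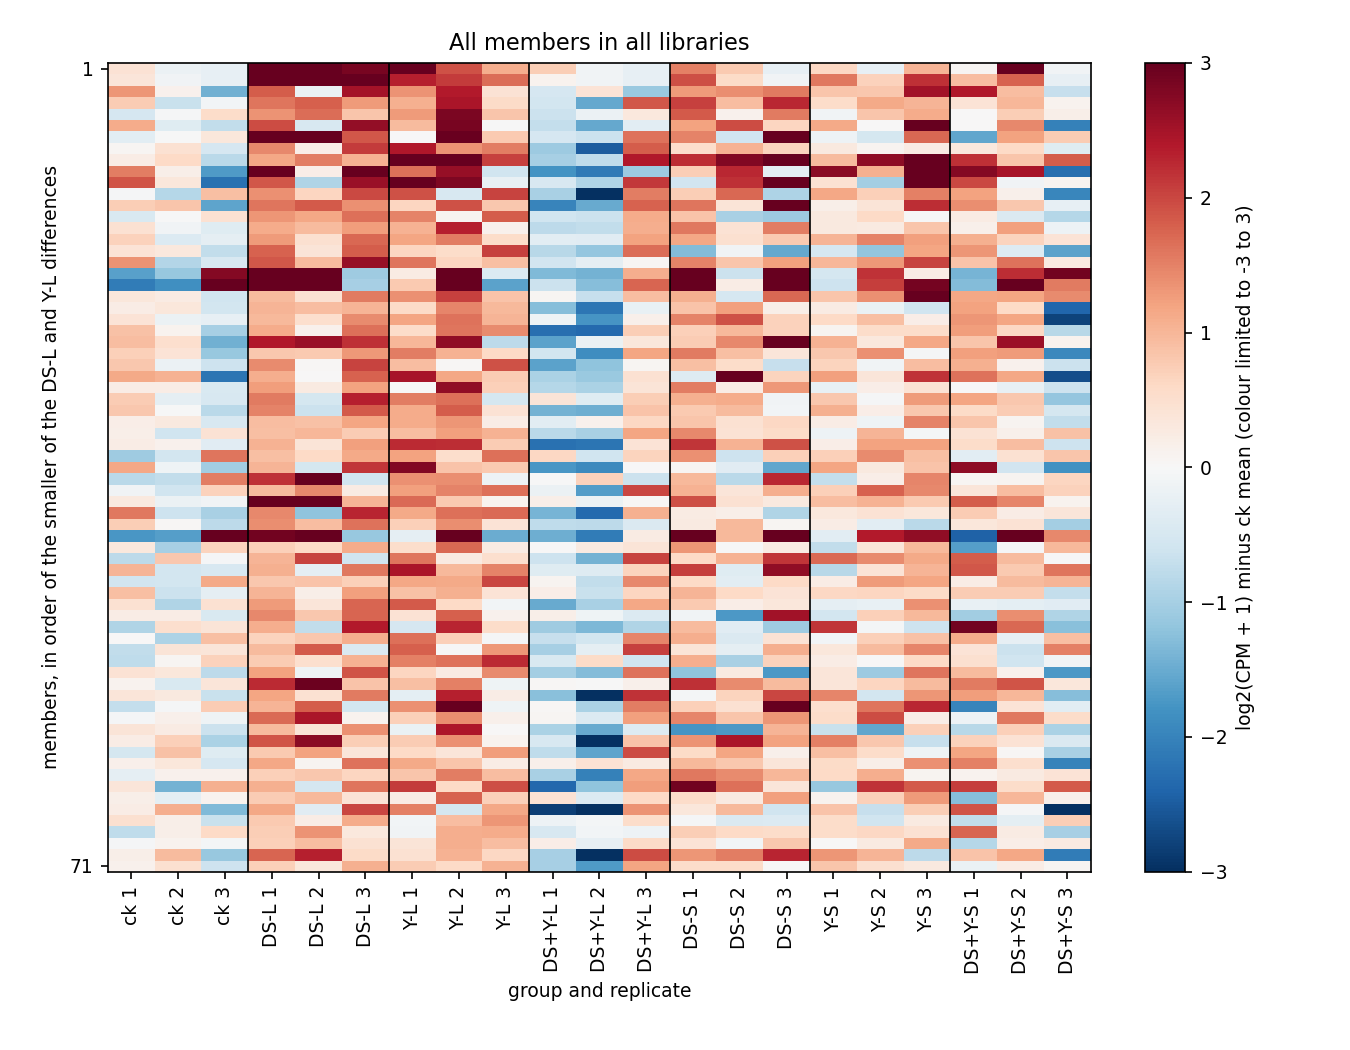
Each of the 71 members (rows, ordered by the smaller d of DS-L and Y-L, largest at the top) in each of 21 libraries (columns), coloured by log2(CPM + 1) minus the ck mean with colour limited to -3 to 3. The DS-L and Y-L columns are mostly red by the choice of members, DS+Y-L replicates 1 and 2 are mostly blue, and DS+Y-L replicate 3 is red in 37 members that are at least 0.7 above ck.

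Membership also moved with other libraries. Leaving out DS-L replicate 2 gave 113 genes (61 of them among the 71), and leaving out Y-L replicate 2 gave 47 (42 among the 71). Leaving out a ck library gave 94, 66 and 59 genes for replicates 1, 2 and 3, of which 44, 46 and 27 were among the 71. The fewest members were shared when ck replicate 3, the lowest ck library for 39 members, was left out.

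**Figure D3:**
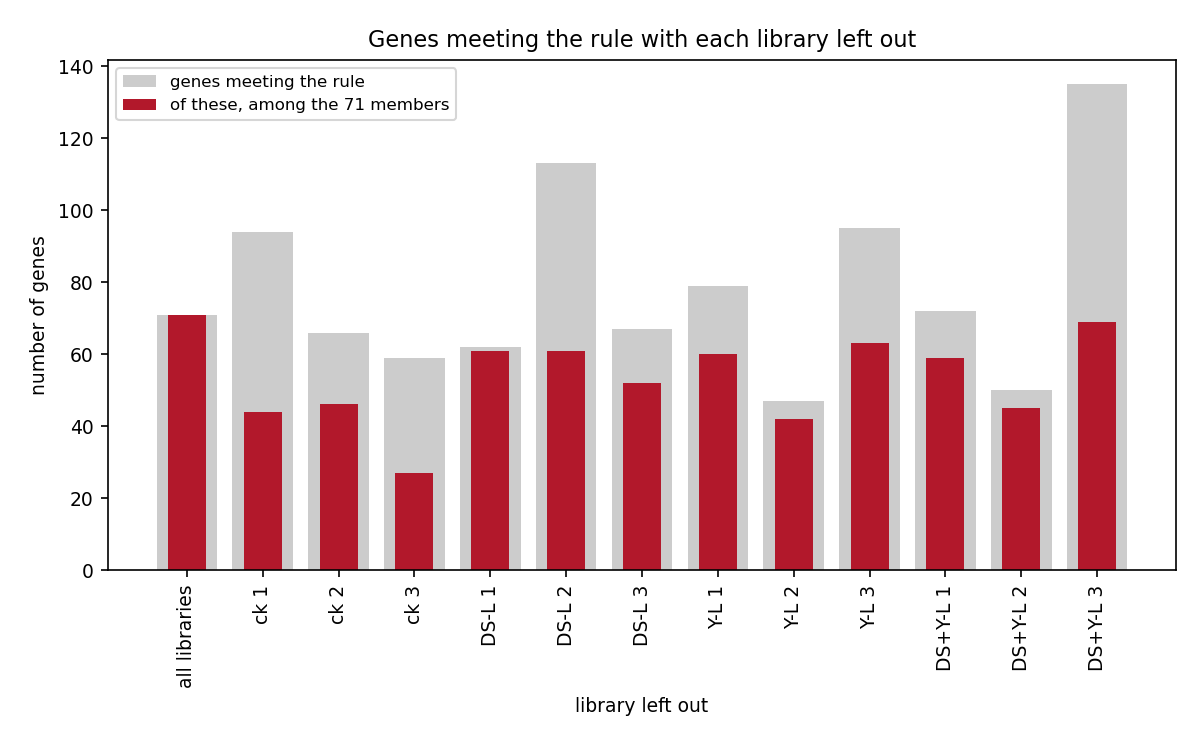
Number of genes that met the rule with all libraries and with each library of ck, DS-L, Y-L and DS+Y-L left out (grey bars), and how many of these were among the 71 members (red bars). The count ran from 47 without Y-L replicate 2 to 135 without DS+Y-L replicate 3.

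By the smaller d, the members that differed most from ck in both single groups were TRINITY_DN15928_c0_g1 and TRINITY_DN5127_c0_g1. TRINITY_DN5127_c0_g1 was at 0.542, 0.105 and 0 CPM in the 3 ck libraries and at 22.8, 19.7 and 24.2 CPM in DS-L. It was at 4.97, 4.07 and 2.82 CPM in Y-L and at 0.285, 0.106 and 0 CPM in DS+Y-L. All 3 combined libraries lay inside the ck range and below all 6 single-label libraries, so none of them kept the raised level of this member. At suffix S the same gene was at 3.58, 0.773 and 0.111 CPM in DS-S and at 2.57, 0.938 and 4.42 CPM in Y-S. DS+Y-S replicates 2 and 3 were at 3.04 and 0 CPM, and the replicate left out was at 1.28 CPM. These groups overlapped, and DS+Y-S over the mean of DS-S and Y-S gave a log2 value of -0.31 with an SE of 1.19 (adjusted p = 1, edgeR).

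TRINITY_DN15928_c0_g1 was at 0.596, 0.0526 and 0 CPM in ck, at 20.96, 30.98 and 7.498 CPM in DS-L, at 11.2, 3.48 and 1.52 CPM in Y-L and at 0.968, 0.106 and 0 CPM in DS+Y-L. Its 3 combined libraries were again below all 6 single-label libraries. At suffix S it was at 2.38, 1.05 and 0 CPM in DS-S and at 0.836, 0 and 1.42 CPM in Y-S. DS+Y-S replicate 2, at 11.5 CPM, was above all of these, whereas replicate 3, at 0.111 CPM, and the replicate left out, at 0.232 CPM, were not. The fold change over the mean of DS-S and Y-S was 2.70 on the log2 scale (SE 1.33, edgeR adjusted p = 0.764) and became -2.78 without DS+Y-S replicate 2.

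Among the 59 members with a mean of at least 5 CPM over DS-S and Y-S, TRINITY_DN9449_c0_g1 and TRINITY_DN4736_c0_g1 had the most negative fold change of DS+Y-S over the mean of DS-S and Y-S. TRINITY_DN4736_c0_g1 was at 23.9, 36.2 and 109 CPM in DS-S, at 9.50, 33.9 and 119 CPM in Y-S, and at 8.61 and 17.9 CPM in DS+Y-S replicates 2 and 3. Replicate 2 lay below all 6 single-label libraries, and replicate 3 lay above Y-S replicate 1. DS+Y-S stood at -1.87 on the log2 scale relative to the mean of its single labels, with an SE of 1.07 (adjusted p = 0.870, edgeR). In the libraries that chose it, this gene was at 5.31, 7.16 and 2.06 CPM in ck, 11.0, 14.6 and 10.1 CPM in DS-L, and 72.0, 114 and 21.5 CPM in Y-L. DS+Y-L held it at 1.71, 2.17 and 27.6 CPM, so replicate 3 was within the range of the single-label libraries and the other replicates were below it. The DS+Y-S replicate left out was at 23.5 CPM.

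TRINITY_DN9449_c0_g1 spread widely within groups. It was at 3.67, 31.1 and 96.5 CPM in DS-S, at 8.54, 2.46 and 117 CPM in Y-S, and at 5.45 and 6.34 CPM in DS+Y-S replicates 2 and 3, with 26.4 CPM in the replicate left out. Both fitted DS+Y-S libraries lay inside the range of the single-label libraries. On the log2 scale DS+Y-S stood at -2.71 relative to that mean, with an SE of 1.74 (adjusted p = 0.916, edgeR). Its ck libraries, at 24.9, 7.79 and 0.489 CPM, covered much of the range of DS-L (24.3, 2.74 and 41.0 CPM) and of DS+Y-L (3.99, 2.70 and 29.6 CPM), while Y-L was at 81.1, 47.8 and 4.96 CPM. For this gene the raised single-label means did not separate from ck by library.

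**Figure D4:**
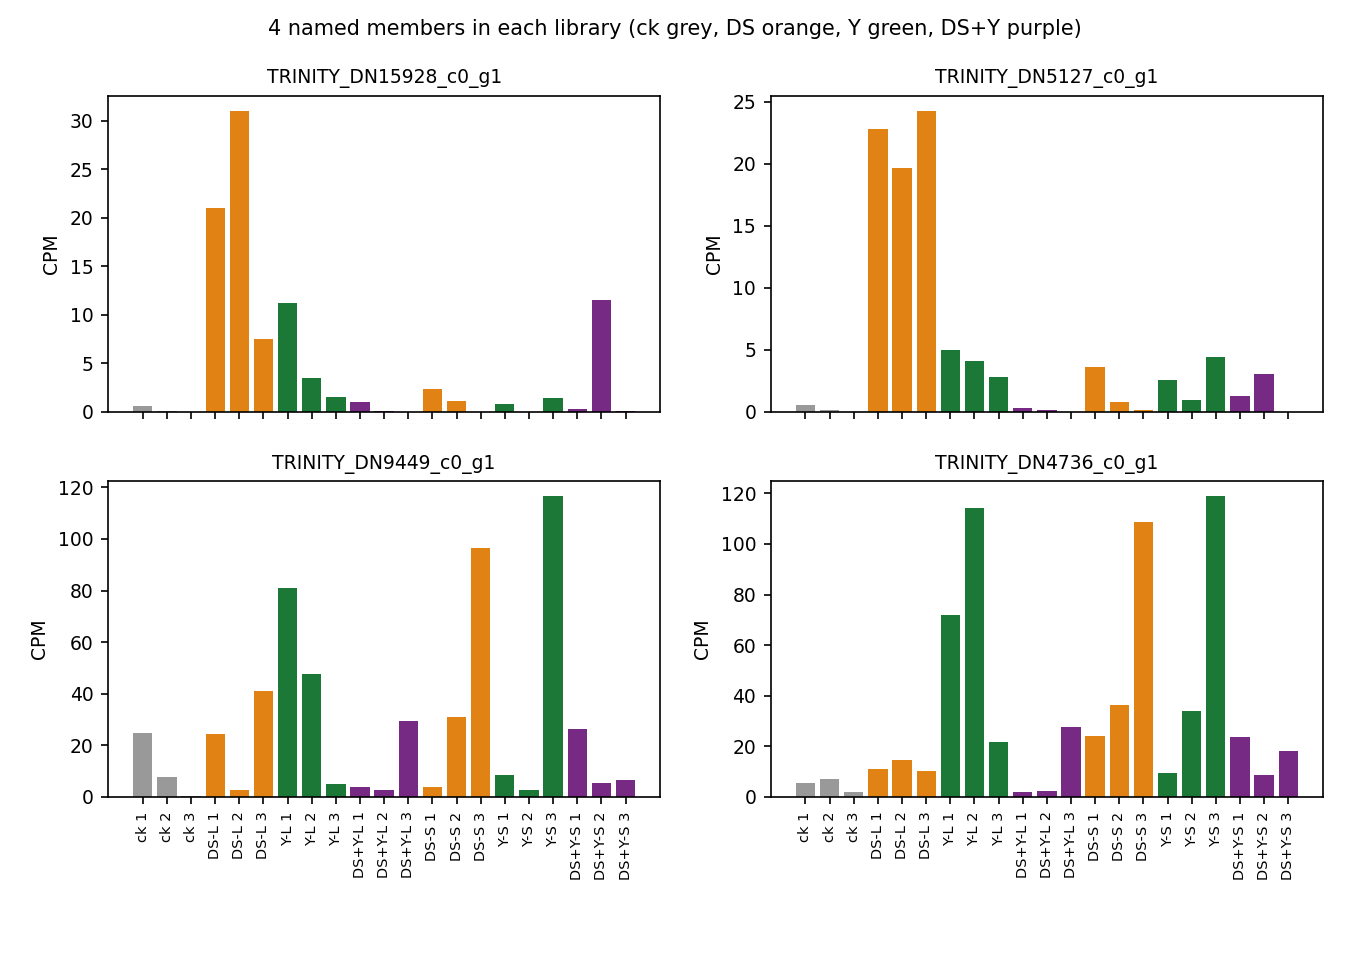
CPM of the 4 named members in each of 21 libraries (bars from 0; ck grey, DS orange, Y green, DS+Y purple). In the upper panels the 3 DS+Y-L libraries lie below 1 CPM and below all 6 single-label L libraries. In the lower panels DS+Y-L replicate 3, at 29.6 and 27.6 CPM, stands well above replicates 1 and 2.

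The member most abundant in ck had a short effective length, 156 bases by its ratio of counts to FPKM. It was at 2481, 975 and 2498 CPM in ck, 4382, 2355 and 6071 CPM in DS-L, 6561, 2756 and 1711 CPM in Y-L, and 641, 923 and 4039 CPM in DS+Y-L. Here too DS+Y-L replicates 1 and 2 were below every ck library and replicate 3 was inside the single-label range. Together the members took 0.282% to 0.648% of the counts in ck libraries, 1.09% to 1.21% in DS-L and 0.556% to 1.15% in Y-L. They took 0.180%, 0.197% and 0.802% in the DS+Y-L libraries. These shares are weighted towards the most abundant members, of which another was at 106, 151 and 2258 CPM in the ck libraries.

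Whether the combined label also lay under its single labels at suffix S was asked in libraries that played no part in choosing members. There the members were lower in DS+Y-S than in the mean of DS-S and Y-S by a median of -0.40 on the log2 scale, against -0.04 over all genes tested, and 55 of 71 members had a fold change below 0, against 52.9% of genes tested. None of the 71 was called by edgeR's quasi-likelihood test at an adjusted p under 0.05, where 0.0073% of all genes were called. DESeq2 called 0 members as well, and 148 of the 41105 genes tested. At an unadjusted p under 0.05, 0 members passed in either direction, against 1.29% of genes tested that were lower, and the smallest member p was 0.0575. Libraries of DS+Y-S were below all 6 single-label S libraries without overlap in 3 members (4.23%), against 6% of genes tested. Single members ran from -2.71 to 2.70, and the median standard error of a member's log2 fold change was 0.81. Without the low-count filter, edgeR called 5 members in this comparison, among 1617 of 92756 genes.

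The lower median at suffix S was carried by 1 library. Relative to a gene's mean over the 6 libraries of DS-S and Y-S, the members' median was -0.08 in DS+Y-S replicate 2 and -1.05 in replicate 3, against -0.07 and -0.17 over all genes tested. Replicate 2 was below all 6 single-label S libraries in 5 members and replicate 3 in 38, against 14.2% and 27.4% of genes tested. Without replicate 3 the median fold change was -0.14, and without replicate 2 it was -1.26, each of these fits leaving 1 DS+Y-S library, assumed to vary like the other groups. In DS+Y-S replicate 1, the library with few genes counted, the median was -0.11 against -0.21 over all genes tested. With that library included in the fit, the members' median was -0.28.

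**Figure D5:**
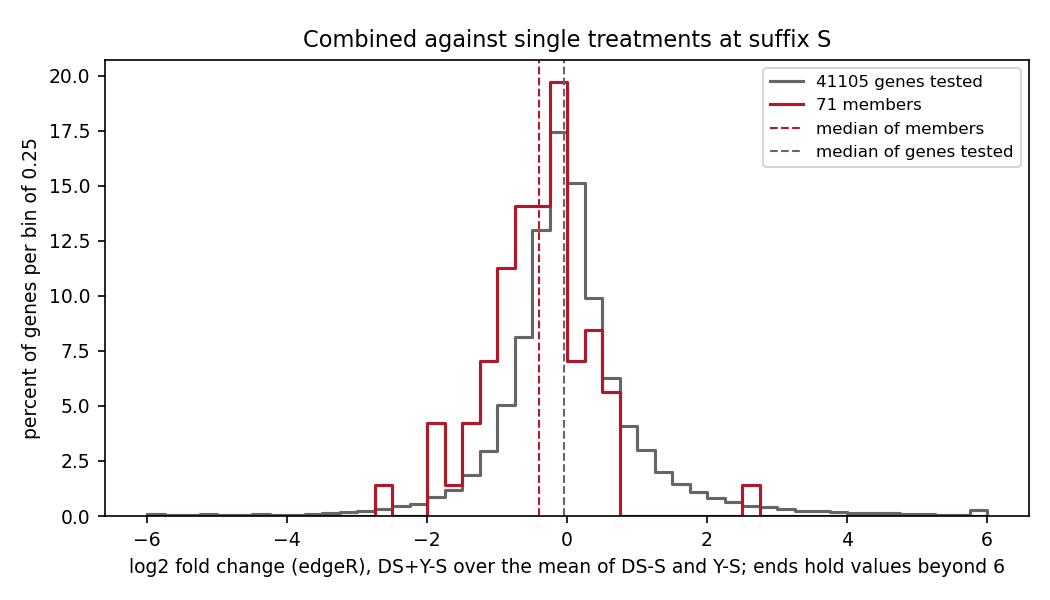
Distribution of the edgeR log2 fold change of DS+Y-S over the mean of DS-S and Y-S for the 71 members and for the 41105 genes tested, in percent of genes per bin of 0.25, with the end bins holding values beyond 6. The dashed lines mark the medians, -0.40 for the members and -0.04 for all genes tested, and the 2 distributions overlap over most of their range.

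The combined label was also set against each single label. The median fold change of DS+Y-S was -0.56 over DS-S, with 53 members below 0 against 52.9% of genes tested, and -0.30 over Y-S, with 48 below 0 against 52.6%. edgeR and DESeq2 called 0 members in both comparisons. Of all genes, edgeR called 0%, and DESeq2 called 126 of 41105 against DS-S and 53 against Y-S. At an unadjusted p under 0.05, 1 member was lower than in DS-S (1.39% of genes tested) and 0 were lower than in Y-S (1.03%). Libraries did not overlap, with DS+Y-S lower, in 13 members against DS-S (15% of genes tested) and in 10 against Y-S (11.1%), shares near those of all genes. DS-S over Y-S gave a median of 0.09 over members, which ran from -0.07 to 0.42 when 1 library was left out. There edgeR and DESeq2 called 0 members, while of all genes edgeR called 0% and DESeq2 called 13 of 41105. In that comparison 0 members had an edgeR unadjusted p under 0.05. DS-S libraries lay above all Y-S libraries in 4 members and below them in 2, against 2.95% and 2.71% of genes tested.

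Members leaning to DS or to Y at suffix L were compared at suffix S. The 39 members with the larger d in DS-L had a median fold change of DS-S over Y-S of 0.09, with 20 above 0. The 32 with the larger d in Y-L had a median of 0.21, with 17 above 0. Members grouped by their DS+Y-L libraries were compared in the same way. The 16 with all 3 libraries under 0.3 had a median fold change of -0.22 for DS+Y-S over the mean of DS-S and Y-S, and the 36 high in DS+Y-L replicate 3 alone had -0.44. These subsets were taken after their values were seen, and no test was made of them.

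Relative to ck, most members were also higher in the single groups of suffix S. These values share the ck libraries with the choice of members, so they are given as a description. The median d was 0.80 in DS-S, 0.62 in Y-S and 0.22 in DS+Y-S, against 0.03, 0.02 and -0.08 over genes tested. At least 0.7 was reached by 41 members in DS-S (4.4% of genes tested), by 31 in Y-S (4.53%) and by 25 in both (2.47%). Of these 25, 11 were under 0.3 in DS+Y-S, the pattern by which the members were chosen at suffix L, which 0.414% of genes tested showed. DS-S libraries lay above all ck libraries in 15 members (5.98% of genes tested), Y-S libraries in 9 (6.03%) and the fitted DS+Y-S libraries in 7 (10.3%). edgeR and DESeq2 called 0 members in each of these comparisons. Of all genes, edgeR called 0% in DS-S, 0% in Y-S and 0.00243% in DS+Y-S, and DESeq2 called 105, 87 and 555 of 41105. At an unadjusted p under 0.05, 9 members were higher in DS-S (2.68% of genes tested), 4 in Y-S (2.6%) and 3 in DS+Y-S (6.39%). TRINITY_DN4736_c0_g1 had the smallest unadjusted p of the members in both single comparisons, at 3.44 on the log2 scale in DS-S with an SE of 1.05 (adjusted p = 1, edgeR) and 3.47 in Y-S with an SE of 1.05 (adjusted p = 0.973, edgeR).

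In the comparisons that chose the members, edgeR also called 0 of the 71, and nothing is read from these counts. For DS-L against ck, 17 members were higher at an unadjusted p under 0.05 (5.55% of genes tested) and libraries did not overlap in 27 (6.47%). There edgeR called 0% of all genes, and DESeq2 called 5 members and 775 of the 41105 genes tested. For Y-L against ck, 24 members were higher at that p (6.59%) and libraries did not overlap in 18 (8.4%). There edgeR called 0% of all genes, and DESeq2 called 3 members and 408 of the 41105 genes. For DS+Y-L against ck, 0 members had an unadjusted p under 0.05 and 0 were called by DESeq2. Of all genes in that comparison, edgeR called 0.109% and DESeq2 called 3559. For DS+Y-L against the mean of DS-L and Y-L the median fold change was -1.37, 31 members were lower at an unadjusted p under 0.05 (5.1%) and the 9 libraries did not overlap in 10 (1.56%). The smallest edgeR adjusted p of a member there was 0.0729, and edgeR called 0.314% of all genes. DESeq2 called 15 members and 1033 of the 41105 genes. Without DS+Y-L replicate 3, edgeR called 16 members and the median was -2.48. Over all genes, the edgeR count in this comparison ran from 0 to 1854 when 1 library was left out.

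The 691 genes that kept a d of at least 0.7 in DS+Y-L served as the closest set for comparison. In the suffix S libraries their median fold change of DS+Y-S over the mean of DS-S and Y-S was 0.74, with 23.6% below 0, where the members had -0.40 and 77.5%. Their level in DS+Y-S replicates 2 and 3 was alike, with medians of 1.56 and 1.47 above ck, whereas the members stood at 0.74 and -0.25. In DS+Y-S replicate 1, left out of the fit, the order was reversed, with medians of 0.57 for the kept genes and 0.77 for the members. Both sets were chosen through the same DS-L, Y-L and ck libraries and were split from each other by their level in DS+Y-L, so their levels in those groups are not compared, and no test was made of their difference at suffix S.

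Members varied more between libraries of 1 group than most genes did. The SD of log2(CPM + 1) within DS-S and Y-S, libraries not used to choose them, had a median of 0.694 over members, against 0.341 over genes tested and 0.396 over the 16579 genes with at least 5 CPM in DS-L or Y-L. The kept genes had 0.918. Deviations from the group means over the 8 fitted libraries of suffix S correlated between members at a mean pairwise r of 0.192, against 0.0166 between genes tested and 0.459 between kept genes. These are descriptions, since all genes of a library share its depth and its scaling. The members' effective length had a median of 865 bases (quartiles 638 and 1269), against 713 over genes tested and 1250 over the 16579 genes. No member shared an assembly component with another member, and 32 had other genes of the table in their component, against 54.3% of genes tested.

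A tree of the members by their correlation over libraries, made after the values were seen and not tested, put 56 members in 1 branch and 9, 4 and 2 in the others. The branch of 56 followed the pattern of the whole, with medians of -0.77, -1.04 and 0.86 in the DS+Y-L libraries. The branch of 9 was highest in DS-L replicates 1 and 2, with medians of 3.09 and 4.10 above ck, and had a median of 0.10 in DS-L replicate 3. It holds TRINITY_DN15928_c0_g1 and TRINITY_DN5127_c0_g1, which differ from that median in DS-L replicate 3, at 2.84 and 4.40 above ck. In DS+Y-L its medians were 0.05, -0.18 and 0.16, but its members lay on both sides of ck, with d there from -1.11 to 0.295. For example, 1 member was at -2.10 in DS+Y-L replicate 2 and another at 1.74 in replicate 3. In DS+Y-S replicates 2 and 3 the branch medians were 1.88 and 0.54. The branch of 4 had medians below ck in all 3 DS-S libraries, at -0.62, -0.27 and -1.31. Its members were not all below ck there, since 1 was at 0.86 in DS-S replicate 1 and another at 0.27 in replicate 2.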

How the data were processed

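Leaf messenger RNA, captured with oligo(dT) as the labels' protocols state, was sequenced in 21 libraries. The deposited tables hold raw read counts and FPKM values per assembled gene, per the file headers. How the authors assembled transcripts, aligned reads and computed FPKM is not stated in any source used here. Columns were matched to samples by title, and 0 columns of per-sample values stayed unmatched.

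The members, their rule and the gene sets beside them were chosen with earlier results of these data known. The quasi-likelihood test of edgeR 4.0.16 (R 4.3.3), after filterByExpr by group and TMM scaling, was run on the counts in 1 fit to 20 libraries without DS+Y-S replicate 1, with 11 contrasts over 41105 genes and Benjamini-Hochberg adjustment over all of them. The common biological coefficient of variation was 0.571. A standard error is the absolute log2 fold change over the square root of the F statistic. CPM used column sums, with a pseudocount of 1 before the log2. Effective length came from counts and FPKM where FPKM was at least 1. The procedure was tested on simulated counts. DESeq2 1.42.0, its size factors, no low-count filter, a replicate block, all 21 libraries, each library left out, and (added after seeing the data) the ck and suffix S libraries alone were alternatives.

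Before averaging, each pair of libraries within a group was checked against sampling noise. Chi-square per gene ran from 31.5 to 187 over 21 pairs, so none agreed within sampling noise. The 4 identifiers printed are the 2 members with the largest smaller d of DS-L and Y-L, and the 2 with the most negative fold change of DS+Y-S over the mean of DS-S and Y-S among members averaging at least 5 CPM in those single groups.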

Additional observations from a re-analysis of the deposited data

How the results depend on the processing

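Only 2 libraries of DS+Y-S entered the fit, and the common biological coefficient of variation was 0.571. Without the low-count filter edgeR called more members. The counts were 5 for DS+Y-S against the mean of DS-S and Y-S, 6 against DS-S, 6 against Y-S and 3 for DS-S against Y-S. For DS-S, Y-S and DS+Y-S against ck they were 18, 8 and 6, beside 1103, 900 and 2101 of 92756 genes. For DS-L, Y-L and DS+Y-L against ck they were 22, 25 and 6, beside 2290, 1915 and 5244 of all genes. For DS+Y-L against the mean of its single labels the count was 40, beside 2928 of all genes. The comparisons of suffix L are those that chose the members. The 5 called for DS+Y-S against the mean of DS-S and Y-S included TRINITY_DN15928_c0_g1 at 2.69 (edgeR adjusted p = 1.6e-05), TRINITY_DN9449_c0_g1 at -2.72 (edgeR adjusted p = 5.5e-06) and TRINITY_DN4736_c0_g1 at -1.89 (edgeR adjusted p = 0.00305), whose edgeR or DESeq2 adjusted p ran from 0.59 to 1 over the alternatives that kept the filter. The cause was not tested. DESeq2 called 5 members for DS-L against ck, 3 for Y-L against ck and 15 for DS+Y-L against the mean of its single labels. Over all genes, the counts for DS+Y-S against the mean of DS-S and Y-S, against DS-S, against Y-S and for DS-S against Y-S were 3, 0, 0 and 0. They were 1617, 1333, 954 and 375 without the filter and 148, 126, 53 and 13 by DESeq2, and the first was 0 with all 21 libraries.

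Replicate numbers were not taken to pair the libraries, since 16 of 57 same-number pairs correlated over 0.1 (range -0.412 to 0.568) and 4 of 20 libraries correlated best with their own number. The pairs over 0.1 were mostly within ck and suffix S, where 11 of 15 were, 6 of 6 for replicate 3 (0.254 to 0.568), 5 of 6 for replicate 2 (0.0922 to 0.362) and 0 of 3 for replicate 1 (0.00574 to 0.0816). With the replicate number as a replicate block, the first count was 0 and the members' median fold change of DS+Y-S over the mean of DS-S and Y-S was -0.43. The block turned TRINITY_DN5127_c0_g1 to 0.0547. In fits to the ck and suffix S libraries alone, chosen after seeing the data, that median was -0.41 without and -0.37 with the replicate block, and 0 members were called in either for any comparison among these groups. All genes called in the first comparison numbered 5 without and 14 with the block. With it they numbered 1 against DS-S and 2 against Y-S, and TRINITY_DN5127_c0_g1 stood at 0.0602.

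Leaving out 1 library moved the count over all genes between 0 and 154, 0 and 39, and 0 and 2 for the first 3 comparisons, the highest without DS+Y-S replicate 2 in the first 2. The members' medians ran from -1.26 to -0.14 for DS+Y-S over the mean, -1.42 to -0.10 over DS-S and -1.07 to -0.10 over Y-S. They ran from -0.07 to 0.42 for DS-S over Y-S, 0.71 to 1.28 for DS-S over ck, 0.35 to 0.91 for Y-S over ck, -0.41 (without DS+Y-S replicate 2) to 0.71 for DS+Y-S over ck, -1.04 (without DS+Y-L replicate 3) to 0.28 for DS+Y-L over ck, and -2.48 to -1.09 for DS+Y-L over its single labels. Members called ran from 0 to 2 for DS+Y-L against ck and from 0 to 16 for DS+Y-L against its single labels. Over all genes these counts ran from 0 to 3166 and from 0 to 1854. TRINITY_DN15928_c0_g1 ran from -2.78 to 3.73 and TRINITY_DN5127_c0_g1 from -8.11 to 0.72, the lowest value of each without DS+Y-S replicate 2, which left TRINITY_DN5127_c0_g1 at 0 CPM in the remaining library, so that -8.11 is no measure of size. The rule gave 47 to 135 genes with 1 library left out, 81 with TMM scaling (65 of the 71), 77 with a pseudocount of 0.5 (69), 90 without the CPM minimum (71), 20 with d of at least 1 and 47 with d under 0 in DS+Y-L. Since the limit of 150 was not reached, the members without it are the same.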
